A study of Mus musculus with 12 samples.

Results

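The response of WT bone marrow-derived macrophages (BMDMs) to LPS and IFNγ is described here across the genome, from 6 arrays of a series of 12. BMDMs of WT (C57BL/6) mice aged 6 to 10 weeks were grown for 6 days with M-CSF, the growth factor that drives bone marrow cells to become macrophages, and were then either given vehicle or stimulated for 8 h with LPS at 100 ng/mL together with IFNγ at 50 ng/mL. The same was done with BMDMs of Nos2-/- (B6.129P2-Nos2tm1Lau/J) mice, which lack the inducible NO synthase. There were 3 arrays for each of the 4 groups, and the series describes them as biological replicates. The labels place the vehicle samples before stimulation while the protocol gives vehicle for the same time, so these samples are called untreated here. Each Affymetrix Mouse Genome array reports 45101 probe sets as log2 signals. The probe sets that name exactly 1 gene cover 18193 genes, and where several name the same gene, the one with the greatest mean signal in the 12 arrays stands for it. No gene was left out for low signal, so all 18193 were tested, with limma in 1 model of the 4 group means. Calls of a gene as higher or lower are at an adjusted p (Benjamini-Hochberg) under 0.05. A log2 fold change is the mean of the stimulated arrays minus that of the untreated arrays, and every fold change below is of WT unless Nos2-/- is named. Signals of different probe sets depend on their probes, so levels are compared between arrays for the same gene and not between genes, other than by their place in the range of an array.

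LPS, a component of the outer membrane of Gram-negative bacteria, is sensed by TLR4, which signals through the adaptors MyD88 and TRIF to the transcription factors NF-kB, AP-1 and IRF3. IFNγ signals through the kinases JAK1 and JAK2 to transcription factors of the STAT family, which drive the genes of the interferon response, among them further transcription factors of the IRF family. Macrophages given both become what is called classically activated or M1: they secrete cytokines, make NO and itaconate and take up more glucose.

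Stimulation changed the signal of most genes, and most of these changes were small. Of 18193 genes tested, 10559 (58%) were called, 5393 higher (29.6%) and 5166 lower (28.4%), and 5842 of the called genes changed by less than 1.5-fold. Counts of called genes in the lists below are to be read against these shares. At 2-fold or more, 948 genes (5.21%) were higher and 1663 (9.14%) lower. The balance turned with the size of the change. At 8-fold or more, 164 genes (0.901%) were higher and 104 (0.572%) lower, at 32-fold or more 44 and 4, and at 64-fold or more 22 and 0. The median log2 fold change of all genes was 0.07 and the median standard error 0.09. The 3 arrays of 1 group all lay above those of the other for 65.1% of genes. Of the 7634 genes not called, 7535 had a 95% confidence interval within 1.5-fold either way. In such bulk samples fewer cells of a type and less RNA per cell cannot be told apart. RMA scales the arrays to each other, so each change is relative to the other genes. The deposited probe set signals still differed in distribution. Their 75th percentile was 7.54 to 7.57 in untreated and 7.28 to 7.38 in stimulated WT arrays. With these signals set to 1 distribution (quantile normalization repeated), 1016 genes were at least 2-fold higher and 1415 lower.

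**Figure D1:**
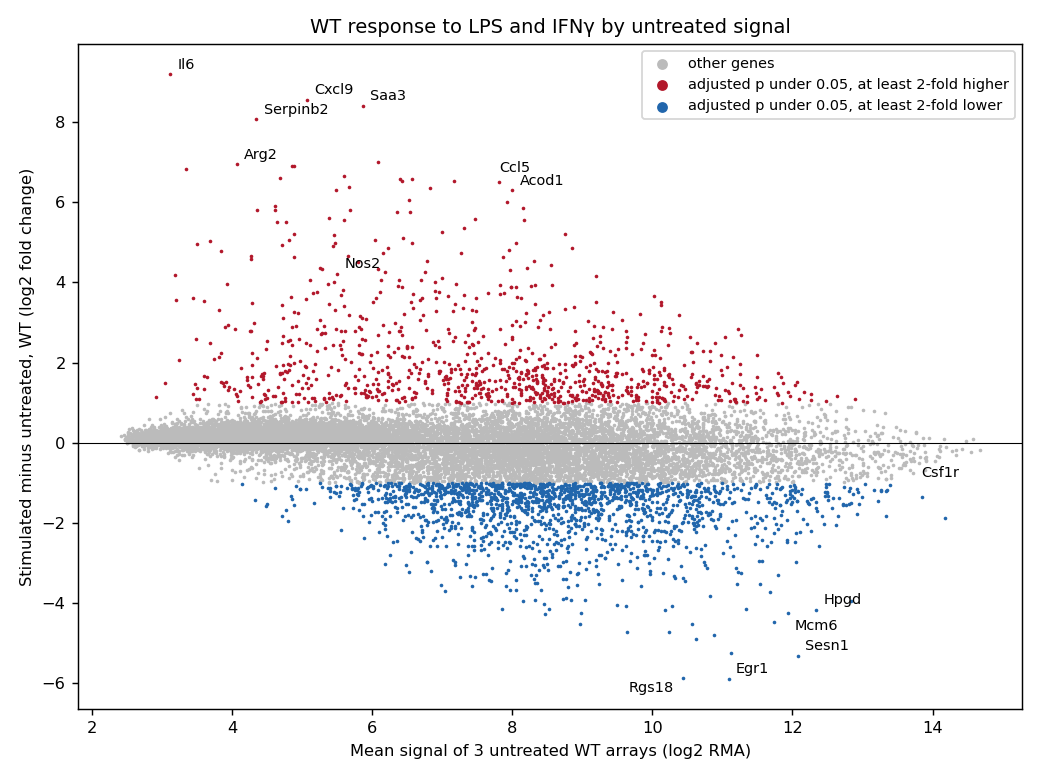
Log2 fold change after stimulation in WT (y axis) against the mean log2 RMA signal of the 3 untreated WT arrays (x axis), with 1 point for each of 18193 genes. The largest rises stand at the left, among genes of low untreated signal, and the largest falls at the right. The 948 genes at least 2-fold higher and the 1663 at least 2-fold lower at an adjusted p under 0.05 are in red and blue.

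The share of genes that rose or fell differed with the untreated signal. Genes below the median of all probe sets in each of the 3 untreated arrays are called dim here, and genes among the top 10% in each of the 3 arrays are called high. Of 6538 genes dim in untreated cells, 1.9% were at least 2-fold higher and 0.168% lower. Of 2676 high in untreated cells, 6.46% were at least 2-fold higher and 18.9% lower. For the 8979 genes between them these shares were 7.25% and 12.8%, and most of the rises (651 of 948) and of the falls (1145 of 1663) were among these. A signal that is dim at the start has little room to fall on an array. Most of the genes high after stimulation, 78%, had been high before it. Of the 5922 genes that were dim in all 6 WT arrays, 1461 were called higher, 1410 of them by less than 1.5-fold, and 171 were called lower, with a median of 0.12. Among them are genes of receptors for odours and pheromones. Of 70 measured genes of this kind, 14 were called higher and 0 lower by limma (15 and 2 at an unadjusted p under 0.05), with a median of 0.12, and Hox genes and keratins had medians of 0.14 and 0.18. The cause of this small shift was not tested. Without the genes dim in all 6 arrays, 3932 were called higher and 4995 lower of 12271.

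The move from dim to high was made by 13 genes (0.0715% of all genes). They are the cytokines Il6 and Il1a, the arginases Arg1 and Arg2, the serpin Serpinb2 (plasminogen activator inhibitor 2), the uridine phosphorylase Upp1, the integrin chain Itgb8, the actin-binding proteins Cnn3 and Fscn1, the protease inhibitor Cst7 (cystatin F), the surface glycoprotein Cd200, the water and glycerol channel Aqp9 and the receptor Gpr31b. Il6, a cytokine of the acute phase response, had log2 signals of 3.09, 3.06 and 3.22 in the untreated arrays, near the lowest on the arrays, and of 12.27, 12.38 and 12.33 in the stimulated ones. The groups were far apart and did not overlap. This is a 589-fold rise (standard error 0.08 on the log2 scale, adjusted p = 2.86e-17 from limma), whose size is uncertain because the untreated signal is close to the background of the arrays. Itgb8, which pairs with the αv integrin chain, went from 3.30, 3.25 and 3.49 to 10.04, 10.25 and 10.26, again without overlap. The log2 fold change was 6.84 (standard error 0.11). Upp1, which splits uridine, went from 4.76, 4.74 and 5.13 to 11.86, 11.62 and 11.85, a log2 fold change of 6.90. Aqp9 and Il1a had the smallest changes of the 13, at 5.07 and 4.93. The classes were chosen on the same arrays, so these values are a description of the genes.

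The Nos2-/- arrays had no part in the choice of the classes, but their signals counted in the choice of probe sets. They showed a rise of the same genes. All 13 genes were called higher there (26.3% of all genes were), with a median log2 fold change of 5.77 against 5.82 in WT, and 8 of the 13 also met both limits. Tested for a difference in response between genotypes, 1 of the 13 was called, Arg1, which competes with NO synthase for arginine. Its log2 signals were 4.26, 4.48 and 4.33 in untreated and 10.12, 10.08 and 10.33 in stimulated WT, 4.35, 4.54 and 4.80 in untreated and 9.40, 9.44 and 8.72 in stimulated Nos2-/-. The 3 stimulated Nos2-/- arrays lay below the 3 of WT, and the difference in log2 response, Nos2-/- minus WT, was −1.20 (standard error 0.23, adjusted p = 0.0274 from limma). That call was made under 7 of 14 alternatives. It was lost with no moderation of the variances, with a replicate block and without any 1 of 5 WT arrays, untreated replicates 1, 2 and 3 and stimulated replicates 1 and 3 (adjusted p for Arg1 from 0.0506 to 0.0859 in limma without single arrays). In Nos2-/- the same limits were met by 11 genes (0.0605%).

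The opposite move, from high to dim, was made by 2 genes (0.011%). Rgs18 encodes a protein that shortens signaling through G proteins. Its log2 signals were 10.49, 10.45 and 10.39 untreated and 4.59, 4.46 and 4.65 stimulated, a fall of 5.87 (standard error 0.13). Rnf144b encodes a ubiquitin ligase. Its signals fell from 9.57, 9.56 and 9.80 to 5.18, 4.66 and 4.93, by 4.72. Both were called lower in Nos2-/- (28.2% of all genes were), at −5.54 and −4.77, although neither met both limits there. The 1 gene that did (0.0055%) was Cxcr4.

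**Figure D2:**
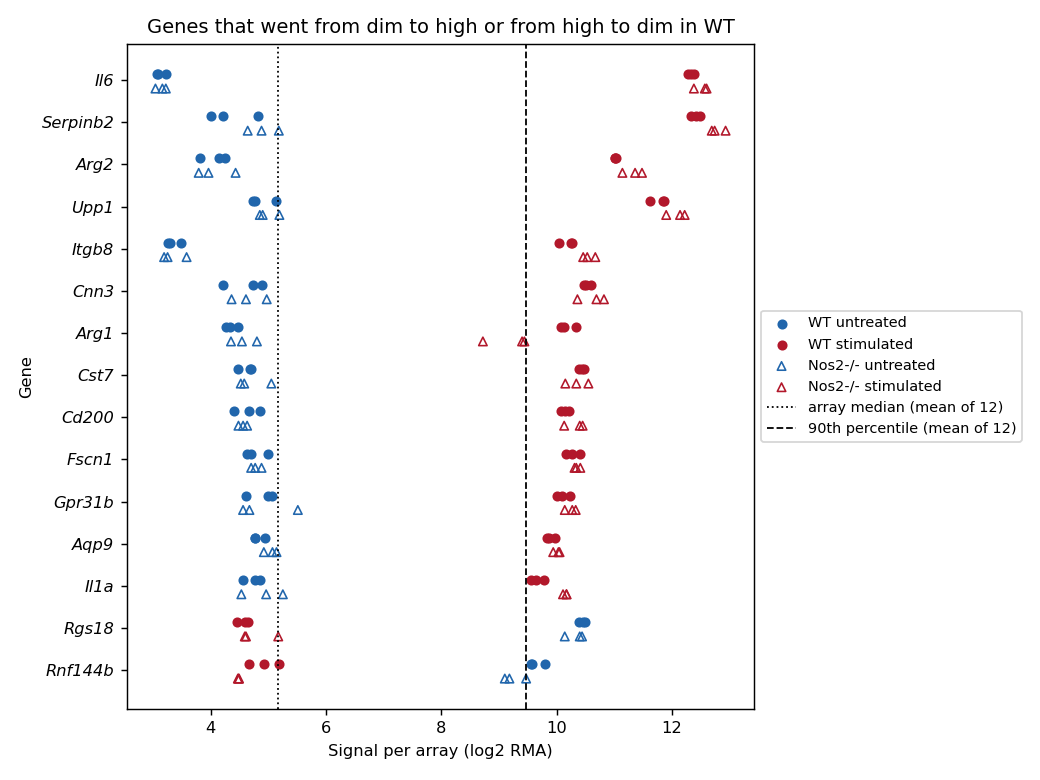
Log2 RMA signal (x axis) in every array for the 13 genes that were dim in untreated and high in stimulated WT BMDMs and for the 2 that made the opposite move (y axis, 1 gene per line). Filled circles are WT and open triangles Nos2-/- arrays, blue untreated and red stimulated. Lines mark the mean over 12 arrays of the array median and of the 90th percentile. Stimulated Arg1 is the line on which the Nos2-/- arrays stand apart from those of WT.

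The letters before the start of Il6 are shown because its gene had the largest rise. The 250 bases upstream of the start in the RefSeq promoter table of GRCm38.p6 lie at chr5:30012864-30013113 on the + strand. Capitals mark 2 overlapping matches, 1 on each strand, to the kB motif bound by NF-kB, which is GGGA and CC with 4 bases between them, 44 to 34 bases before the start. Such a match is a description of letters and shows no binding. Here and below, only the motifs named with a sequence are marked, and matches to others, such as AP-1, are not.
Il6: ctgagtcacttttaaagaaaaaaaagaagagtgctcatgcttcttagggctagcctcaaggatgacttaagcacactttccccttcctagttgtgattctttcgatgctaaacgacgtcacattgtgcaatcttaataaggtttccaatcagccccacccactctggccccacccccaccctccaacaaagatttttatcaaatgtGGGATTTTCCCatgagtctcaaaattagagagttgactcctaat

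The genes with the 15 largest rises are Il6, Cxcl9, Saa3, Serpinb2, Lcn2, Arg2, Cfb, Upp1, Itgb8, Ptges, Slamf1, Timp1, Socs3, AA467197 and Ptgs2, and the least of them rose by 6.53. Their order is uncertain, since untreated signals near the background, as of Itgb8, and stimulated signals near the top of the arrays both limit a rise. Ccl5, close to that top, stood just outside the 15. Lcn2, which binds bacterial siderophores and so withholds iron, had untreated signals of 5.47, 6.54 and 6.23 and stimulated ones of 13.12, 13.15 and 12.97. The groups did not overlap, and the rise was 128-fold (adjusted p = 2.23e-12 from limma). Cfb, factor B of the alternative complement pathway, went from 4.66, 4.68 and 5.25 to 11.77, 11.84 and 11.74, a log2 fold change of 6.92. Timp1, an inhibitor of matrix metalloproteinases, went from 6.25, 6.32 and 6.63 to 13.03, 13.03 and 12.91, a change of 6.59. Slamf1, a receptor that binds itself on neighbouring cells, rose by 6.62 (standard error 0.20).

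Some interleukin genes rose by a large factor, and others were dim after stimulation. Of 29 interleukins and colony-stimulating factors, 19 were called higher, 8 of them at least 8-fold, 1 was lower and 9 did not pass. Of the 29, 17 were dim untreated and 10 were dim stimulated. Il1b, an inflammatory cytokine released after cleavage by caspase 1, had signals of 8.32, 8.31 and 7.82 untreated and 14.01, 14.03 and 13.97 stimulated. The stimulated arrays agreed within 0.1 and lay far above the untreated ones, at a log2 fold change of 5.86 (standard error 0.23). Its antagonist Il1rn rose by 5.22, Il1a by 4.93 and the alarmin Il33 by 4.58. Il12b, the p40 chain shared by IL-12 and IL-23, rose by 4.78, Csf3 (G-CSF) by 3.44 and Ebi3, a chain of IL-27, by 2.83. Of the cytokines known from T cells, Il4 was higher by 0.33, while Il2 was at 0.11, Il3 at 0.01, Il5 at 0.13, Il13 at 0.00 and Il17a at 0.08, which did not pass the test. The gene that fell was Il16, a T cell chemoattractant, at −1.04.

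Of 31 ligands and receptors of the TNF superfamily, 17 were called higher, 3 lower and 11 did not pass. The largest rise was that of Cd40, the receptor through which T cells license macrophages (4.35), followed by the death receptor Fas (3.16), the TNF receptor Tnfrsf1b (3.07) and Tnfsf10, which encodes TRAIL (2.85). Tnf itself, already well above the array median before stimulation, rose far less. Its signals were 8.79, 8.78 and 8.98 untreated and 9.98, 9.81 and 9.84 stimulated, without overlap, a 2.04-fold rise (standard error 0.08 on the log2 scale). The receptors Tnfrsf21 and Tnfrsf11a (RANK) fell, at −1.75 and −1.06.

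Of 33 chemokines, which guide leukocytes, 22 were called higher, 11 of them at least 8-fold, 4 were lower and 7 did not pass. The median was 0.58 against 0.07 for all genes. The IFNγ-induced chemokine Cxcl9, a ligand of Cxcr3, rose by 8.56 and Cxcl11, a ligand of the same receptor, by 5.57. Ccl5 (RANTES) had signals of 7.86, 7.58 and 7.98 untreated and 14.29, 14.35 and 14.27 stimulated, the latter close to the highest on the arrays, where a rise is understated. The neutrophil chemoattractants Cxcl3 and Cxcl1 rose by 6.31 and 3.95 and the monocyte chemoattractants Ccl8 and Ccl7 by 4.06 and 3.61. The 4 that fell include Cxcl14 (−2.45), Ccl6 (−1.45) and platelet factor 4, Pf4 (−1.39). On the side of the receptors, Fpr2, a receptor of formyl peptides and of serum amyloid A, rose by 4.99. Ccrl2 rose by 4.06 and Ccr7, which guides cells to lymph nodes, by 2.92. Cxcr4, the receptor of Cxcl12, fell from 10.87, 10.84 and 10.93 to 5.88, 6.20 and 6.14, by 4.81, and the fractalkine receptor Cx3cr1 by 3.95. The receptor list had 11 genes higher and 6 lower of 23 with a median of 0.22, which became −0.33 when genes below the median signal were left out.

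Of 37 acute phase and secreted defence proteins, 25 were called higher, 11 of them at least 8-fold, 6 were lower and 6 did not pass. Saa3, a serum amyloid A made by macrophages, reached 14.27, 14.29 and 14.29, near the array maxima, from 6.36, 5.85 and 5.41. The untreated arrays were spread over nearly 1 unit and still lay far below. Thrombospondin 1 (Thbs1) rose by 6.36, ceruloplasmin (Cp), a copper protein of the plasma, by 5.80 and Slpi, an inhibitor of neutrophil elastase, by 5.76. The lysozyme gene Lyz2 fell by 0.24 and the plasminogen activator Plau by 1.93. Of 24 complement genes only 6 were higher and 6 lower, led by Cfb and the protease C1ra (3.73), while C1qa, a chain of C1q, was at −1.05. Of 26 metalloproteinases and inhibitors 12 were higher and 7 lower, Mmp14 rising by 4.63 and Mmp13 by 3.44.

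**Figure D3:**
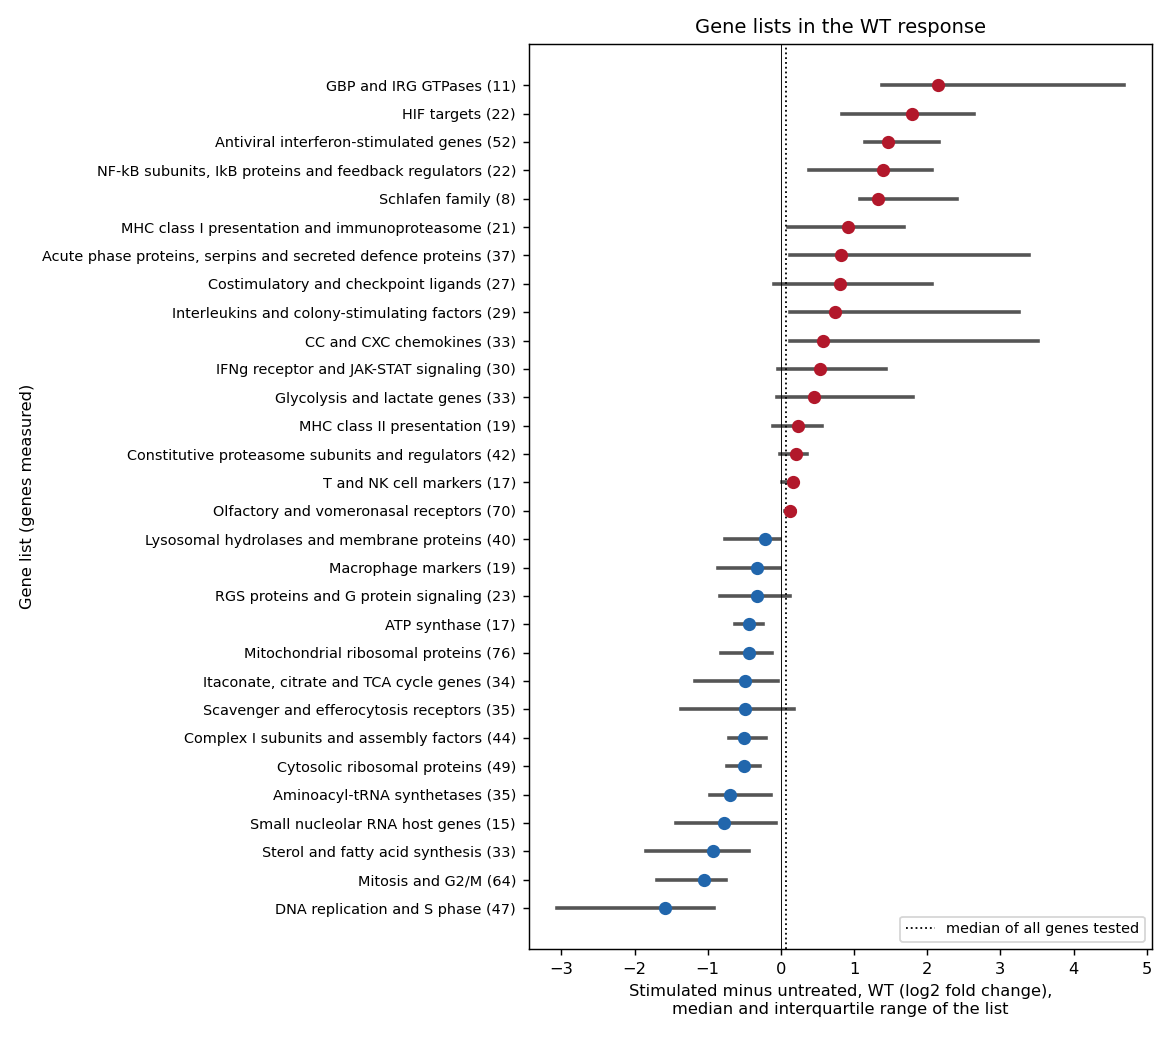
Median (circle) and interquartile range (bar) of the log2 fold change after stimulation in WT (x axis) for 30 gene lists (y axis, with the number of genes measured). The dotted line is the median of all genes tested, 0.07. The lists of GBP and IRG GTPases, HIF targets and antiviral genes stand furthest to the right and that of DNA replication furthest to the left.

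Nearly every measured gene of the list of antiviral interferon-stimulated genes rose. By its name the list holds genes that interferon raises, so the count says nothing of antiviral genes in general. Of 52 antiviral genes, 51 were called higher, 44 of them at least 2-fold, and 0 lower by limma (51 higher and 0 lower at an unadjusted p under 0.05), with a median log2 fold change of 1.47, and Ifi44l, at −0.06, was the 1 that did not pass. Their mean signal was already between 9.68 and 10.0 in the untreated arrays and was between 11.58 and 11.61 in the stimulated ones. The restriction factor Ifitm1 rose by 4.74, Oasl1 by 4.43, the exonuclease Isg20 by 3.94, Mx1 by 3.90 and Rsad2 (viperin) by 2.85, whereas Ifitm3, an entry inhibitor, was at 0.27. Of 11 GTPases of the GBP and IRG families, which attack the vacuoles of intracellular pathogens, 10 were higher, 5 of them at least 8-fold. Gbp2 went from 9.05, 8.49 and 9.01 to 13.69, 13.76 and 13.69, without overlap, at 4.86 (adjusted p = 1.05e-12 from limma). Iigp1 rose by 4.98, Gbp6 by 4.87 and Irgm1 by 1.59. Each of the 8 measured genes of the Schlafen family was higher, from 0.54 for Slfn10-ps to 5.37 for Slfn4. Of 11 genes of the PARP family 7 were higher and 3 lower, among the latter the DNA repair enzyme Parp1 (−2.66).

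The pathway between receptor and interferon genes moved in both directions. Of 30 genes of IFNγ and JAK-STAT signaling, 19 were higher and 6 lower. The inhibitors Socs3 and Socs1, which bind JAK kinases and receptors, rose by 6.59 and 3.45. The signals of Socs3 were 6.87, 6.52 and 6.33 untreated and 13.12, 13.24 and 13.13 stimulated. The kinase Jak2 rose by 3.19 and the transcription factors Stat4, Stat3 and Stat2 by 2.29, 2.18 and 1.96. The ligand-binding chain of the IFNγ receptor, Ifngr1, went the other way, from 11.43, 11.50 and 11.48 to 9.65, 9.64 and 9.63, a fall of 1.83, and all 3 stimulated arrays lay below the untreated ones. Of 8 interferon regulatory factors, 5 rose, Irf7 by 2.20, Irf1 by 1.69 and Irf8 by 1.03, and Irf4, known from alternative activation, fell by 0.72. Irf9, a part of the factor ISGF3, was at 0.01 and did not pass.

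The 250 bases upstream of 4 of these genes are shown for the motifs that interferon and NF-kB signaling use. The letters searched on both strands were GAAA and a further GAAA after 2 bases (ISRE, bound by IRFs), TTCNNNGAA (GAS, bound by STAT dimers) and the kB letters given above, and matches could overlap. They are from the RefSeq promoters of GRCm38.p6, read 5′ to 3′ on the gene's strand, with matches to any of the 3 in capitals. Gbp2 (chr3:142620413-142620662, + strand) has an ISRE match on the opposite strand 59 to 50 bases before the start. Irf1 (chr11:53769764-53770013, + strand, the first of 2 promoters in the table) has a GAS match 90 to 82 bases and a kB match on the opposite strand 13 to 4 bases before it. Cxcl10 (chr5:92348890-92349139, − strand), which encodes a ligand of Cxcr3 and rose by 3.21, has an ISRE match 213 to 204 bases and kB matches 159 to 150 and 103 to 94 bases before it. Socs3 (chr11:117969367-117969616, − strand) has a GAS match 154 to 146 and a kB match 97 to 88 bases before it.
Gbp2: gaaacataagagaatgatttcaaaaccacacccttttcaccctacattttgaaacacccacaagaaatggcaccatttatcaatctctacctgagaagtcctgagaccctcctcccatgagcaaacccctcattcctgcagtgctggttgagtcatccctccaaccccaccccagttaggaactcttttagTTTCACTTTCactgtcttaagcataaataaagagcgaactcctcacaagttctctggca
Irf1: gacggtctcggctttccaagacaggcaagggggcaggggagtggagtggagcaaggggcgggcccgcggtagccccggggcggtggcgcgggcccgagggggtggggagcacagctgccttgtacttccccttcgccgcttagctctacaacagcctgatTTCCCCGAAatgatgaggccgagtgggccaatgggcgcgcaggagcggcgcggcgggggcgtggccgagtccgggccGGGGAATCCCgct
Cxcl10: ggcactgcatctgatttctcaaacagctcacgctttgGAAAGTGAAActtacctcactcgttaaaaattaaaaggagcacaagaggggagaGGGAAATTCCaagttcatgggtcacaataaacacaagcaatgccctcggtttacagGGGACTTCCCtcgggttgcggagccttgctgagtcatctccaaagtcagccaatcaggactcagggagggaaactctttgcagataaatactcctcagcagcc
Socs3: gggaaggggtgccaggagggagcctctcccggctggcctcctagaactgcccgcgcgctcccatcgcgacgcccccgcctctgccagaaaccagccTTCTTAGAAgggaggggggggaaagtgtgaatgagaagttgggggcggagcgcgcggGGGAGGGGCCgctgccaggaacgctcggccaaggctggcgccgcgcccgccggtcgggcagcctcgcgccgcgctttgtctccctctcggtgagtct

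Inhibitors of NF-kB were among the genes that rose. Of 22 genes of NF-kB subunits, IkB proteins and feedback regulators, 18 were higher, 13 of them at least 2-fold, and 1, the deubiquitinase Otulin, was lower (−0.82), with a median of 1.39. The signaling adaptor Traf1 rose by 4.02, Tnfaip3, which encodes the ubiquitin-editing inhibitor A20, by 3.26, and the RNase Zc3h12a, which degrades cytokine mRNAs, by 2.40. The IkB proteins Nfkbie, Nfkbib and Nfkbia rose by 2.20, 1.92 and 0.97, and the subunits Nfkb2, Rela and Rel by 1.80, 0.45 and 0.35. Of 32 genes that sense LPS and other microbial products, 17 were higher and 7 lower. The inhibitory kinase Irak3 rose by 3.07, the sensor Nod1 by 2.54 and the RNA receptor Tlr3 by 1.79. The LPS receptor Tlr4 fell from 10.72, 10.66 and 10.64 to 9.80, 9.93 and 9.90, by 0.80, in this probe set, while 1 of its 4 probe sets was called higher and 3 lower. Its homologue Cd180 fell by 1.63 and Tlr13, a receptor of bacterial RNA, by 2.04.

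Some immediate early factors were lower after 8 h of stimulation while other members of their families were higher. Egr1 fell furthest of all genes, from 11.03, 11.08 and 11.17 in the untreated to 5.09, 5.18 and 5.33 in the stimulated arrays. The groups did not overlap, and this is a 59.3-fold fall (adjusted p = 1.19e-10 from limma). Egr2, a factor also known from alternative activation, fell by 4.53 and Fos by 1.21. Of 23 factors of these families 13 were higher, with Batf at 3.61, Ier3 at 3.50, Batf2 at 3.18, Fosl1 at 2.36 and Atf3, a repressor of cytokine genes, at 1.48. Of 42 other transcription factors, 19 were higher and 15 lower. Mxd1, an antagonist of Myc, rose by 3.89 and Hif1a, the factor of the hypoxia response, by 1.96, while Mef2c, Pparg, Myc and Cebpa fell by 4.73, 3.94, 3.51 and 2.17. Of 20 dual-specificity phosphatases, some of which switch off MAP kinases, 7 were higher and 8 lower. Dusp2 and Dusp16 were at 3.76 and 3.67 and Dusp22 and Dusp6 at −2.80 and −1.12.

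Most genes of MHC class I presentation rose, and changes in the class II list were smaller. Of 21 class I genes, 13 were higher, 10 of them at least 2-fold, and 4 lower. The peptide transporter chains Tap1 and Tap2 rose by 2.21 and 2.05, the immunoproteasome subunits Psmb10, Psmb9 and Psmb8 by 1.81, 1.71 and 1.19, and their activator Nlrc5 by 1.87. The light chain B2m was at 0.10 and the heavy chain H2-D1 at 0.11, and neither passed. The heavy chain H2-K1 rose by only 0.24. The 4 that fell include the chaperones Calr, Pdia3 and Canx (−0.81, −0.75 and −0.60). The 42 subunits and regulators of the constitutive proteasome had a median of 0.2, with 23 higher and 7 lower. Of 19 class II genes, 10 were higher, but only 1 at least 2-fold. That was Marchf1, a ubiquitin ligase that removes class II molecules from the surface, at 2.66. The chain H2-Ab1 rose by 0.52, the chain H2-Aa was at −0.11, the invariant chain Cd74 at 0.05 and the class II transactivator Ciita at 0.17. Of 27 costimulatory and checkpoint ligands 17 were higher and 7 lower. Cd274, which encodes PD-L1, rose by 5.27 and Cd86, a ligand of CD28, by 4.32, while the checkpoint molecules Havcr2 (TIM-3) and Vsir (VISTA) fell by 1.47 and 1.38. Among Fc receptors, Fcgr4 and the inhibitory Fcgr2b rose by 4.15 and 3.65 and Fcgr1 by 1.24.

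Genes of prostaglandins and leukotrienes went both ways. Ptgs2 (cyclooxygenase 2) had signals of 6.48, 6.58 and 6.20 untreated and 12.94, 12.96 and 12.94 stimulated, a 92.1-fold rise, and the synthase Ptges signals of 5.73, 5.47 and 5.60 and 12.28, 12.25 and 12.22. In both the stimulated arrays lay within 0.1 of each other. Hpgd, the dehydrogenase that inactivates prostaglandins, fell from 12.28, 12.37 and 12.37 to 8.36, 7.66 and 8.50, by 4.17 (standard error 0.21). The lipoxygenase Alox5 fell by 2.01, its partner Alox5ap by 1.54, the leukotriene A4 hydrolase Lta4h by 1.45 and the receptor Ptger4 by 2.98, whereas the receptors Ptger2 and Ptgir rose by 2.11 and 2.02. Of all 30 measured genes, 13 were higher and 11 lower.

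Genes of NO and arginine metabolism went both ways, with the largest changes upward. Nos2, the inducible NO synthase, went from 5.45, 5.40 and 5.65 to 9.73, 9.81 and 9.64, without overlap, at 4.22 (adjusted p = 9.46e-13 from limma). The arginine transporter Slc7a2 rose by 6.07, the arginases Arg2 and Arg1 by 6.95 and 5.82, and Gch1, which starts the synthesis of the NO synthase cofactor tetrahydrobiopterin, by 1.80, followed by Ass1, which recycles citrulline, at 0.89. Later and recycling enzymes of the cofactor, Spr and Qdpr, fell by 1.53 and 1.81, and Srm, the spermidine synthase, by 2.76. Of 25 genes 10 were higher and 9 lower. Of 36 genes of inflammasomes and cell death, 21 were higher and 8 lower, with rises of the pyrin gene Mefv (3.62), the necroptosis effector Mlkl (3.23), Casp4 (2.78), the sensor Nlrp3 (1.74) and Gsdmd (1.23) and falls of Gsdme (−3.29) and Bcl2 (−1.92).

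More genes of glycolysis rose than fell, and most genes of the TCA cycle fell. Of 33 glycolysis and lactate genes, 18 were higher, 6 lower and 9 did not pass. Pfkfb3, which makes the activator of phosphofructokinase, rose by 5.76, the glucose transporters Slc2a6 and Slc2a1 by 3.93 and 2.71, the lactate transporters Slc16a3 and Slc16a1 by 2.79 and 2.34, and the hexokinases Hk3, Hk2 and Hk1 by 1.86, 1.67 and 1.38. The glucose transporters Slc2a3 and Slc2a8 fell by 3.11 and 1.48. The phosphofructokinases Pfkl and Pfkp rose by 1.80 and 1.24. Of the later enzymes, Tpi1, Eno2 and Pgam1 rose by 0.96, 0.85 and 0.72, Ldha by 0.60 and Pgk1 by 0.45, and Pkm and Aldoa, at −0.04 and 0.16, did not pass. Of 10 genes of the pentose phosphate pathway and NADPH supply 7 were lower, among them transketolase (Tkt, −1.18), and 2 higher. Of 22 targets of HIF, 19 were higher and 2 lower with a median of 1.79, led by Pfkfb3, Egln3 (4.50), Ddit4 (4.35) and Hilpda (3.62), whereas the carbonic anhydrase Car9 fell by 1.43.

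Of 34 genes of the TCA cycle, citrate and itaconate, 21 were lower, 10 of them at least 2-fold, 6 were higher and 7 did not pass, with a median of −0.49. The exception in size was Acod1, the enzyme also called IRG1 that makes itaconate from cis-aconitate. Its signals were 8.07, 7.89 and 8.05 untreated and 14.30, 14.32 and 14.29 stimulated, at the top of the array's range, a 78.8-fold rise that the ceiling may understate. Suclg2, a subunit of succinyl-CoA ligase, fell by 2.73, the isocitrate dehydrogenases Idh2, Idh1 and Idh3a by 2.52, 1.87 and 1.82, fumarase (Fh1) by 1.72 and the cytosolic aconitase Aco1 by 1.25. Of the subunits of succinate dehydrogenase, Sdhc, Sdha and Sdhb fell by 0.79, 0.52 and 0.28 and Sdhd rose by 0.21, a call that was lost with arrays centred on their medians (adjusted p = 0.0502 from limma). Of 12 genes of the pyruvate dehydrogenase complex and its regulators, 7 were lower and 2 higher. The subunits Dlat, Pdha1 and Pdhb fell by 0.59, 0.40 and 0.22 (for Pdhb adjusted p = 0.0534 from limma without WT stimulated replicate 3), the activating phosphatase Pdp1 by 1.43 and the inhibiting kinase Pdk1 by 0.64, while the kinase Pdk3 rose by 1.83 and the pyruvate carrier Mpc1 by 0.65.

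**Figure D4:**
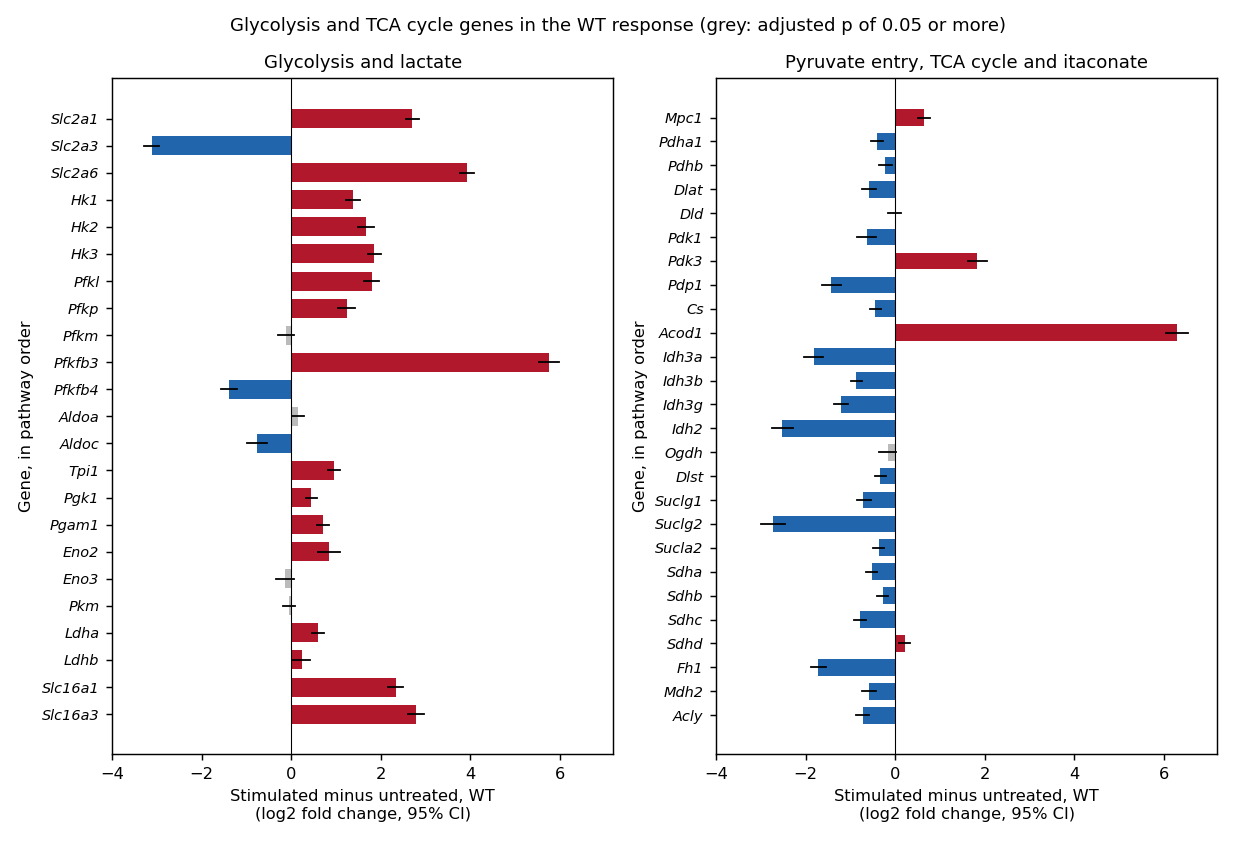
Log2 fold change after stimulation in WT (x axis, bars with 95% confidence intervals from limma, 3 arrays per group) for genes of glycolysis and lactate (left) and of pyruvate entry, the TCA cycle and itaconate (right), in pathway order (y axis). Red bars rose, blue bars fell and grey bars did not pass the test. On the right, Acod1 is the only bar that exceeds 2, and 20 of 26 bars are blue.

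Most genes of the respiratory chain fell, few of them by 2-fold. Of 17 ATP synthase genes 16 were lower and 0 higher by limma (17 and 0 at an unadjusted p under 0.05), with a median of −0.43 and a range from −1.14 to −0.14. Of 44 complex I subunits and assembly factors 36 were lower and 2 higher, with a median of −0.5. Ndufaf7 and Ndufaf4, assembly factors, fell by 2.34 and 1.65 and the subunit Ndufa12 by 1.38, with another of its probe sets at 0.03, and the subunits Ndufb1 and Ndufs4 rose, by 2.01 and 1.00. For complexes II to IV with cytochrome c, 21 of 38 were lower and 8 higher, with a median of −0.24. The copper chaperone Sco1 rose by 2.84, while its homologue Sco2 fell by 0.96. Of 76 mitochondrial ribosomal proteins 54 were lower and 5 higher, with a median of −0.43.

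Translation genes fell as widely. Of 49 cytosolic ribosomal proteins 43 were lower and 1 higher, with a median of −0.51, and only 4 were lower by 2-fold or more. Rpl12, at −1.86, fell the most, and Rps16, at 0.13, did not pass the test. Many of these genes have pseudogenes whose transcripts a probe set may also bind. Of 35 aminoacyl-tRNA synthetases 26 were lower and 4 higher, with a median of −0.7. The isoleucine enzyme Iars fell by 2.13, and Wars, the tryptophan enzyme that IFNγ is known to induce, rose by 0.90. Of 15 host genes of small nucleolar RNAs, 10 were lower and 1 higher. Snhg4, Snhg1 and Gas5 fell by 2.65, 1.66 and 1.48.

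Genes of DNA replication had the lowest median of the lists counted. Of 47 genes of S phase 44 were lower, 32 of them at least 2-fold and 12 at least 8-fold, and 0 were higher by limma (at an unadjusted p under 0.05 also 44 and 0), with a median of −1.58. The helicase subunit Mcm6 had log2 signals of 11.83, 12.01 and 11.94 untreated and 7.69, 7.49 and 7.83 stimulated, 3 arrays against 3 without overlap. It fell 19.2-fold (standard error 0.09 on the log2 scale, adjusted p = 1.92e-13 from limma). The dUTPase Dut fell by 4.26, the ribonucleotide reductase subunit Rrm2 by 4.02, the polymerase subunit Pola1 by 3.92, the cyclin Ccne2 by 3.90 and the uracil glycosylase Ung by 3.59, whereas Orc1, at 0.17, and Ccne1, at −0.22, moved far less. Of 64 genes of mitosis 54 were lower, none of them 8-fold, and 2, Pttg1 (1.43) and Tpx2 (1.18), were higher. Kif11, a spindle motor, fell by 2.57 and Top2a by 2.02. Among the regulators of G1, the cyclin D genes went apart. Ccnd1 fell by 2.44 and Ccnd2 and Ccnd3 rose by 2.42 and 1.43. The CDK inhibitors Cdkn2d and Cdkn1a rose by 1.88 and 1.08, and the kinases Cdk6 and Cdk4 fell by 2.48 and 0.97. The arrays do not tell a lower level in all cells from fewer cells in S phase.

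The upstream bases of Mcm6 are shown as an example of this group, at chr1:128359706-128359955 on the − strand in GRCm38.p6 (RefSeq). Capitals mark the matches to TTTNGCGC, the E2F motif, 110 to 99 and 47 to 40 bases before the start, where 2 matches on opposite strands overlap in the upstream one, and to CCAAT on the opposite strand 57 to 53 and 14 to 10 bases before it.
Mcm6: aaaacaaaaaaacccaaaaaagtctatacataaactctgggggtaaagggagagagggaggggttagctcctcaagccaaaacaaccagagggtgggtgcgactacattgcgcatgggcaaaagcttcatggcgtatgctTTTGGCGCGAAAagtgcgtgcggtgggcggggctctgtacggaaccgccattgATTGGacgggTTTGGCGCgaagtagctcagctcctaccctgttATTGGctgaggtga

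Motif letters were counted in the 250 bases upstream for the groups of which at least 80% of genes have a promoter in the table, and counts for other groups are void. Of 27025 genes with a promoter 1.31% had an E2F match and 37.5% a CCAAT. Of the 39 of 47 DNA replication genes with one, 15.4% had an E2F match and 56.4% a CCAAT. For the 164 genes that rose at least 8-fold, 132 had a promoter (80.5%). An ISRE match stood in 11.4% of them against 3.46% of all genes with a promoter, a GAS match in 10.6% against 8.13%, a kB match in 29.5% against 19.7% and TGANTCA, the AP-1 motif, in 17.4% against 7.82%. TGACNNNGC, the motif of Nrf2, stood in 9.09% against 11.5%, and TGACGTCA, the CRE motif, in 1.52% against 1.77%. Counted by promoter, a kB match stood in 23.1% for the genes that rose and in 17.6% of all. The kB and GAS shares were not particular to genes that rose. Of the 39 DNA replication genes, 25.6% had a kB and 10.3% a GAS match, and 0 an ISRE or AP-1 match. Of the 13 genes that went from dim to high, 11 had a promoter, 5 of them with an AP-1 match and 0 with an ISRE. The counts are void for the genes that fell at least 8-fold (81 of 104 with a promoter) and for the antiviral genes (41 of 52). The table is not complete and no test was made, so these shares describe only the promoters it holds.

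Most genes of lipid synthesis fell. Of 33 genes of sterol and fatty acid synthesis, 28 were lower, 15 of them at least 2-fold, and 2 higher, with a median of −0.93. The desaturases Fads1 and Fads2 fell by 3.25 and 2.47, the squalene epoxidase Sqle by 2.80, the elongase Elovl6 by 2.74 and the sterol enzymes Idi1, Dhcr7 and Cyp51 by 2.20, 2.12 and 2.04. The 2 that rose were Ch25h (0.91), which makes 25-hydroxycholesterol, an inhibitor of this pathway, and Insig2 (0.51), which retains its activator in the endoplasmic reticulum. Among genes of cholesterol efflux, 5 of 14 were higher and 5 lower. The exporter Abca1 rose by 1.64 and the lysosomal lipase Lipa fell by 2.06. Of 40 lysosomal genes 27 were lower and 9 higher, most by little (median −0.22), with Galc and Manba at −2.61 and −2.41.

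Surface receptors went both ways. Of 35 scavenger and efferocytosis receptors and their bridging proteins, 22 were lower, 14 of them at least 2-fold, and 9 higher. The mannose receptor Mrc1 fell by 2.90, Colec12 by 3.41, the bridging protein Gas6 by 3.08 and the lipid receptors Trem2 and Cd36 by 1.54 and 1.46. Marco and Olr1, which bind bacteria and oxidized lipoprotein, rose by 3.42 and 2.84. Of 31 nucleotide receptors, ectoenzymes and related receptors, 12 were lower and 13 higher. Gpr183, a receptor of oxysterols that guides cells in lymphoid tissue, fell from 10.53, 10.53 and 10.60 to 6.02, 5.99 and 6.09. The groups did not overlap, and this is a fall of 4.52 (standard error 0.09). Gpr35 rose by 4.63. Of 23 RGS proteins and partners in G protein signaling 12 were lower and 3 higher, with Rgs2 and Rgs10 following Rgs18 at −4.47 and −2.53. Of 32 genes associated with alternative activation 15 were lower and 12 higher. Arg1 and Il4ra, the IL-4 receptor chain (3.64), stood at 1 end of them and Egr2 and Pparg at the other.

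Of 26 genes of p53 and its targets 10 were higher and 14 lower, with the growth arrest gene Gadd45b at 3.89 and Sesn1 at the other end. Sesn1, a sestrin, which restrains growth signaling, fell from 12.08, 12.07 and 12.09 to 6.72, 6.71 and 6.86 and was called lower by each of its 4 probe sets. The log2 fold change was −5.32 (adjusted p = 1.66e-13 from limma), while its relative Sesn2 rose by 0.61. Among other large falls, Ank, a membrane protein of pyrophosphate transport, fell by 5.24, the glycosyltransferase Gcnt1 by 4.89, Fgf13 by 4.29 and the homeobox factor Hhex by 4.19. Among solute carriers, 345 genes, 114 were higher and 90 lower, and the myo-inositol transporter Slc5a3 and the glutamine transporter Slc1a5 fell by 3.41 and 2.89. Of 331 genes named Zfp, 137 were lower and 50 higher, with a median of −0.14. Of 19 heat shock proteins and chaperones 9 were higher, 5 lower and 5 did not pass, from the mitochondrial Hspe1 (−1.11) to Hspa1a, an inducible heat shock protein (5.06). Of 22 genes of ATF4 and the integrated stress response 12 were higher and 6 lower, with Nupr1 at 4.82 and Shmt2 at −2.58. Of 34 targets of Nrf2 and antioxidant genes 22 were higher and 5 lower, with a median of 0.64. The metallothionein Mt2 rose by 5.58 and the cystine transporter Slc7a11 by 4.98, while the glutathione peroxidase Gpx1 fell by 1.84. Of 21 genes of iron handling 10 were higher and 8 lower, and the transferrin receptor Tfrc fell by 2.11.

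Some of the genes that changed lie side by side. With 18131 genes placed in the order of the RefSeq table of GRCm38.p6, 7 runs of at least 4 neighbours were all at least 2-fold higher (31 genes) and 8 all lower (34 genes), and the longest of each had 5. Most of the rising runs hold related genes. They include Ifit2, Ifit3, Ifit1bl1, Ifit1bl2 and Ifit1 on chromosome 19, Slfn2, Slfn1, Slfn4 and Slfn3 on chromosome 11, Psmb9, Tap1, Psmb8 and Tap2 in the MHC on chromosome 17, Ccl3 and Ccl4 with Wfdc17, Wfdc18 and Wfdc21 on chromosome 11, and Trem1, Trem3, Treml4 and Treml2 on chromosome 17. Trem1, an amplifier of inflammation, rose by 3.20 and Ccl3 by 2.61. A run of genes with no shared name holds Gm9895, Rcl1, Jak2 and Insl6 on chromosome 19. Among the falling runs, Cd300a, Cd300lb, Cd300ld and Cd300c2 on chromosome 11 are a family of lipid receptors, which fell by 1.32, 2.26, 1.34 and 1.49. The other falling runs hold genes with no shared name, such as Cebpzos, Ndufaf7, Prkd3, Qpct and Cdc42ep3 on chromosome 17. Related genes can share probe sequence, so members of the Ifit, Slfn and Cd300 families are not fully separate measurements.

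Markers checked the labelled cell type. None of 19 macrophage markers was dim in untreated cells, and their mean signal was 11.76 to 11.84 in the untreated and 11.39 to 11.46 in the stimulated arrays. The M-CSF receptor Csf1r had 14.08, 14.06 and 14.12 untreated and 13.73, 13.75 and 13.69 stimulated, a fall of 0.36. Of the 19, 13 were lower and 4 higher. Of 17 T and NK cell markers 13 were dim untreated and 12 stimulated, with array means from 4.53 to 4.58 and from 4.66 to 4.79, and 4 were called higher. Cd3e was at 0.23 and Ncr1 at 0.03. Of 12 B cell markers 8 and of 14 fibroblast markers 11 were dim untreated, and none rose by 8-fold. Of the B cell markers 3 were higher and 2 lower, and of the fibroblast markers 8 were higher, 1 of them by 2-fold, and 0 lower by limma, with array means from 4.55 to 4.6 untreated and from 4.9 to 5.0 stimulated. Of 11 mast cell and basophil markers, 7 of them dim untreated, 7 were higher and 0 lower by limma. Of 13 neutrophil markers 7 were higher and 0 lower by limma (also 7 and 0 at an unadjusted p under 0.05), with array means from 6.3 to 6.53 untreated and from 7.12 to 7.21 stimulated. S100a8 and Csf3r, at 3.39 and 2.92, rose the most, while the granule proteins Elane and Ltf were at −0.00 and −0.07. The histidine decarboxylase Hdc, listed as a mast cell gene, rose by 4.67, whereas Cpa3 was at 0.00. Of 11 dendritic cell markers 7 were higher, with Ccr7 at 2.92 and Zbtb46 and Flt3 at 0.09 and 0.21. The part of other cells in the rises above was not tested.

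The response of Nos2-/- BMDMs, measured in 6 other arrays, went the same way as that of WT for nearly all of the genes that changed most. Of the 948 genes at least 2-fold higher in WT, 941 were called higher in Nos2-/-, and of the 1663 lower, 1662 were called lower. Of the other 7 genes, 3 were called lower in Nos2-/-, Gclm (−0.70), Slc22a4 (−0.49) and Ptgr1 (−0.47), which were named after their values were seen. A response that differed between the genotypes was called for 178 genes (0.978%), 55 higher and 123 lower in Nos2-/-. Among the 268 genes changed at least 8-fold in WT it was called for 14, and for 8 of these the Nos2-/- value was the lower. Besides Arg1 they are the heat shock genes Hspa1a and Hspa1b, the prolyl hydroxylase Egln3, the chemokines Cxcl3, Ccl4 and Ccl7, the receptors Cxcr4, Gpr34 and Gpr18, the pattern recognition molecule Ptx3, the repressor Gfi1, the kinase-like gene Dipk1a and Nos2 itself, whose probe set may lie outside the deleted part and so checks no genotype. Hspa1a had stimulated signals of 11.05, 11.17 and 11.07 in WT and 9.73, 9.67 and 9.75 in Nos2-/-. The WT arrays were all higher, and the rises were 5.06 and 3.58 (difference −1.47, standard error 0.15, adjusted p = 0.000188 from limma). Gpr34 fell by 3.12 in WT and was at −1.31 in Nos2-/-. Ptx3 rose by 3.26 in WT and by 4.87 in Nos2-/-. The 10 largest differences of all genes were those of Slc40a1 (−2.56), the iron exporter, Gclm (−2.15) and Gclc (−1.79), the subunits of the ligase that starts glutathione synthesis, the neuropilin Nrp1 (−1.85), Nos2 (−1.84), the transporter Slc22a4 (−1.82), Gpr34 (1.81), the carbonyl reductase Cbr3 (−1.76), the sulfiredoxin Srxn1 (−1.75) and the AMP deaminase Ampd3 (−1.65), all lower in Nos2-/- but Gpr34. Of the lists, that of Nrf2 targets and antioxidant genes had the most such genes, 15 of 34 (20 at an unadjusted p under 0.05), and in all 15 the Nos2-/- value was the lower. Gclm rose from 10.68, 10.74 and 10.58 to 12.13, 12.19 and 12.02 in WT and went from 10.78, 10.74 and 10.82 to 10.20, 10.16 and 9.89 in Nos2-/-. Its groups did not overlap in either genotype, and the directions were opposite (adjusted p of the difference 8.26e-07 from limma). Among the HIF targets the difference was called for 6 of 22, with Egln3 (−1.22), Ero1a (−0.60), Mxi1 (−0.58), Ankrd37 (−0.89) and adrenomedullin, Adm (−1.26), lower and endothelin 1, Edn1 (0.92), higher in Nos2-/-. By limma it was called for 0 of the 52 antiviral genes (9 at an unadjusted p under 0.05), 0 of the 47 genes of DNA replication (1 at that p) and 0 of the 49 cytosolic ribosomal proteins (2 at that p). With 0.978% of all genes called, a count of 0 in lists of this size is near that share. It does not show equal responses. For scale, the unadjusted p was under 0.05 for 37 of 345 solute carriers and 43 of 331 genes named Zfp. The number of calls depended on the arrays in the model. The 55 genes higher and 123 lower in Nos2-/- became 21 and 72 without WT untreated replicate 1, 21 and 75 without replicate 2, 28 and 78 without replicate 3, and 28 and 86 without WT stimulated replicate 1. Hspa1a, Hspa1b and the genes of the 10 largest differences were called under all 14 alternatives tried for them, Ccl7 and Cxcl3 under 8 of 14, Mxi1 under 6 of 14, and Gfi1 and Edn1 under 5 of 13.

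**Figure D5:**
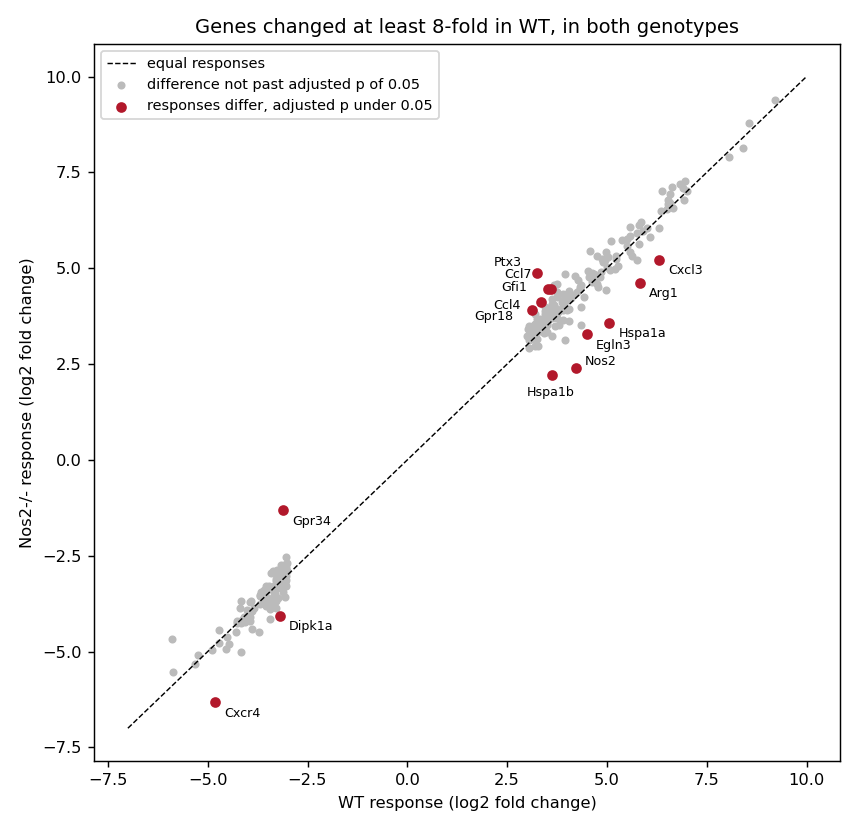
Log2 fold change after stimulation in WT (x axis) and Nos2-/- BMDMs (y axis) for the 268 genes changed at least 8-fold in WT, with 1 point for each gene and 3 arrays per group. Points on the dashed diagonal responded equally. The 14 genes in red, named, passed the test of a different response in the 2 genotypes (adjusted p under 0.05), and Egr1, the grey point off the line at the lower left, did not pass that test.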

How the data were processed

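Total RNA of 12 BMDM samples, 3 in each of 4 groups, was biotin-labelled with an Affymetrix 3′ IVT kit and hybridized to Affymetrix Mouse Genome arrays, 1 sample each. The authors processed the arrays by RMA in Partek, whose versions are not given in the sources used here, and deposited log2 values of 45101 probe sets. RMA corrects background, sets the probes of all arrays to 1 distribution and then summarizes those of each probe set. Low signals are thereby compressed and changes are relative. The summarized signals need not share 1 distribution. Array medians ran from 5.14 to 5.21. Arrays hold no counts, and their number limits the precision. Samples were grouped by their titles.

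Of 45037 probe sets other than 64 controls, 34945 name 1 gene, 932 several and 9160 none in the platform annotation, which can be old. Of 9010 genes with more than 1 probe set, 482 (5.35%) had probe sets called in opposite directions. Genes without a probe set of their own were not analysed here. All tests across genes are two-sided moderated tests of limma 3.58.1 (R 4.3.3), from lmFit and eBayes. The alternatives changed the samples, the moderation, the scaling, the filter on dim genes, the choice of probe set, the thresholds and the replicate block, and included those of the methods, 1.5-fold with a false discovery rate under 0.5, and limma's treat. In simulated data, the WT comparison of 18193 genes found 41 of 50 genes with a log2 change of 0.5 and 49 of 50 with one of 1, and called 8 of 17993 unchanged genes. The simulated noise was independent between genes, so shifts shared by many genes of an array were not covered.

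The genes, lists and motifs were chosen with earlier results of these data known. Genes named are the 15 largest rises and falls without overlap of the WT groups, those that went from dim to high or back, the largest changes and up to 6 defining members of each list, a set of 10 response genes, genes the paper names, neighbours in runs, genes with printed promoters and the 10 largest differences between responses. Others were named after their values were seen. Promoters are from the RefSeq table of GRCm38.p6, which holds 32851 promoters of 27025 genes and matched 14452 (79.4%) of the genes tested by symbol. Python 3.11.15 with pandas 2.3.3 and numpy 2.4.6 made the tables, and matplotlib 3.10.9 the figures.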

Additional observations from a re-analysis of the deposited data

Results flagged for a closer look

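For 41 genes named above, the response to stimulation in Nos2-/- differed from that in WT by the interaction test of limma at an adjusted p under 0.05. The values are the log2 difference, Nos2-/- minus WT, which was below 0 in 29 genes and above 0 in 12. Among genes that rose in WT, it was −2.56 for Slc40a1, −2.15 for Gclm, −1.84 for Nos2, −1.82 for Slc22a4, −1.79 for Gclc, −1.76 for Cbr3, −1.75 for Srxn1, −1.65 for Ampd3, −1.54 for Ptgr1, −1.47 for Hspa1a, −1.40 for Hspa1b, −1.38 for Treml4, −1.26 for Adm, −1.22 for Egln3, −1.20 for Arg1, −1.16 for Fosl1, −1.09 for Cxcl3, −0.89 for Ankrd37, −0.65 for Ptger2, −0.60 for Ero1a, −0.59 for Atf3 and −0.58 for Mxi1. It was 1.60 for Ptx3, 0.94 for Tnfsf10, 0.92 for Edn1, 0.92 for Gfi1, 0.85 for Ccl7, 0.80 for Gpr18, 0.79 for Ccl4, 0.65 for Rcl1, 0.65 for Rel and 0.56 for Tnf, which rose more in Nos2-/-. Among genes that fell in WT, it was −1.85 for Nrp1, −1.51 for Cxcr4, −1.0 for Cebpa, −0.90 for Cd300lb, −0.87 for Dipk1a, −0.79 for Lipa and −0.61 for Cd36, which fell further in Nos2-/-, and 1.81 for Gpr34 and 0.47 for Il16, which fell less. Several of these calls depended on the setting. Under the 14 alternatives tried, Ccl7, Cebpa, Cxcl3 and Tnf were called under 8, Arg1, Atf3, Cd36, Il16 and Rel under 7 and Mxi1 under 6, and Edn1 and Gfi1 were called under 5 of 13. Groups of 3 arrays are too small for a test of single outlying arrays.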

How the results depend on the processing

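In WT, 5393 genes were called higher and 5166 lower. Without genes below the median signal 2895 were higher, with probe sets counted 9257 were higher and 9628 lower, with limma's treat against 2-fold 716 and 1029, and with the thresholds of the methods 1641 and 3076. At 2-fold or more, 948 genes were higher and 1663 lower, against 1641 and 2985 probe sets, and treat left 1029 lower. Leaving out each WT array in turn gave 4547 to 5410 genes higher and 4925 to 5091 lower, of which 934 to 963 and 1594 to 1712 at least 2-fold. With arrays centred on their medians 4355 were higher and 5452 lower. With quantile normalization repeated 5263 were higher and 4809 lower, of which 1016 and 1415 at least 2-fold. Leaving out genes dim in all 6 WT arrays, chosen after seeing the data, gave 3932 and 4995. The 13 genes that went from dim to high became 2 with dim set below the 25th percentile, 28 with high set to the top 25%, and 13 to 15 without single arrays. The 2 of the opposite move became 0, 27, 1 where the probe sets of each gene were averaged, and 2 to 3 without single arrays. The response differed between genotypes for 29 genes higher and 79 lower with no moderation, 124 higher with an intensity trend, and 21 to 49 higher and 72 to 97 lower without single WT arrays. Medians of 78 lists were compared with their main values under the alternatives that can change them. They stayed within the standard deviation over the 3 stimulated arrays in 628 cases and moved further in 228. In 1 case the median was counted as reversed. It was that of the chemokine, complement and formyl peptide receptors, which turned to −0.33 without genes below the median signal. Ndufa12 turned to 0.03 without probe sets ending in _s_at and _x_at. Other than with treat, the calls of Cd3e, Cxcr3, Flt3, Pdhb and Sdhd in WT were also lost under an alternative, and those of no other gene named. The filter on signal, treat and the probe set count change by construction what is counted. For the other changes the cause was not tested.

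Replicate numbers were not taken to pair the samples. Deviations of same-numbered untreated and stimulated WT arrays from their group means correlated at 0.056, 0.017 and −0.023. With the replicate block, 5329 genes were called higher and 5139 lower, and the response differed between genotypes for 51 genes higher and 100 lower.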
